A study of Mus musculus with 20 samples.

Results

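Transcript levels were compared between 2 sets of libraries that carry the same stage label, E10.5 (mid-gestation in the mouse), and differ in the label of tissue preparation: fresh-frozen or fixed. All 6 libraries of the fresh-frozen expression table were set against all 6 of the fixed table, 12 of the 20 libraries in the series. The series applied MAPIT-seq to OCT-embedded sections. In that assay an antibody brings the deaminase fusion rAPOBEC1-pAG-hADAR2 to a protein, here G3BP1, and the RNA nearby is edited and read by poly(A) RNA sequencing. The other 8 libraries are IgG and anti-G3BP1 libraries of brain at E12.5 and E16.5, and they serve below only as a scale. All libraries come from C57BL/6J mice of WT genotype, and the 12 compared here are labelled as whole embryo.

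Each preparation holds 3 groups of 2 libraries. One group received rabbit IgG and the other antibody group anti-G3BP1, both followed by the fusion and a secondary antibody raised in guinea pig against rabbit, with a fixation label of 0.2% FA in either preparation. The untreated group received no antibody and no fusion and carries the fixation label None, also where its title calls it Fixed. The labels do not say whether the 2 libraries of a group came from separate embryos. The p-values below therefore measure only the spread between these libraries, which may be technical. Preparation, expression table, the tissue and developmental age of the sections and the sex of the embryos cannot be told apart by this design.

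A mouse embryo at this stage has a beating heart tube, a liver bud, somites and limb buds, and its blood carries primitive red cells that make embryonic globins. Its nervous system is largely a dividing neuroepithelium with the first differentiated neurons, and the cortical plate, synapses and glia form later. Hox genes mark the hindbrain, spinal cord and trunk and are silent in forebrain and midbrain. Organ markers of this kind are used here to describe what each set of libraries held. The fixed libraries carried markers of heart, liver, trunk and nervous system. The libraries labelled fresh-frozen embryo went against the label of whole embryo, since heart, liver and Hox lists were near 0 there and neuronal and synaptic lists were high. Their levels of adult beta globin, cortical and early-embryo transcripts also went against a shared stage. The label E10.5 itself is thus in doubt for the fresh-frozen set. Each direction below is therefore drawn from libraries that share a stage label and whose markers matched neither in tissue nor in age.

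The deposited values are TPM, a length-corrected share of all transcripts in a library. There were 34527 genes in the fresh-frozen table and 27369 in the fixed one, and the 26017 genes listed in both were rescaled to the same sum in each library. Neither table lists a gene at 0 in all its libraries. Of the shared genes, 19893 reached 1 TPM in at least 6 libraries and were tested with limma on log2(TPM + 1) with treatment as a covariate. All log2 changes below are fresh-frozen minus fixed on that scale, which understates the change of low genes, and a gene is called higher or lower at a Benjamini-Hochberg adjusted p under 0.05. At that threshold 11041 genes (55.5%) were higher and 5182 (26%) lower in the fresh-frozen libraries. With a log2 change of 1 or more as well, 11559 (58.1%) were called in either direction. Most genes were therefore called, and the count of a list is to be read against these shares. The median change of all genes was 0.65. Of the calls 68.1% were higher, against 44.3% when each library was centred at its median and 48.9% after quantile normalization. The share of higher genes thus depends on the scaling, so values from centred libraries are given where a gene or a list changed its side.

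Across tested genes, log2(TPM + 1) correlated at 0.952 to 0.980 within the 6 pairs of replicates and at 0.915 to 0.977 within the 24 pairs of the same preparation and another treatment. The 36 pairs across preparations correlated at 0.555 to 0.648. Pairs within a table share its normalization, and genes are not independent replicates. One fresh-frozen library stood apart. The first IgG library had 25508 genes at 1 TPM or more, against 20770 to 21514 in the other 5, and 422 olfactory and vomeronasal receptor genes at that level, against 22 to 44. The predicted gene Gm10800 reached 20669 TPM there. Without that library 11014 genes were higher and 5096 lower, and the lists below changed by at most 1 call in either direction.

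**Figure D1:**
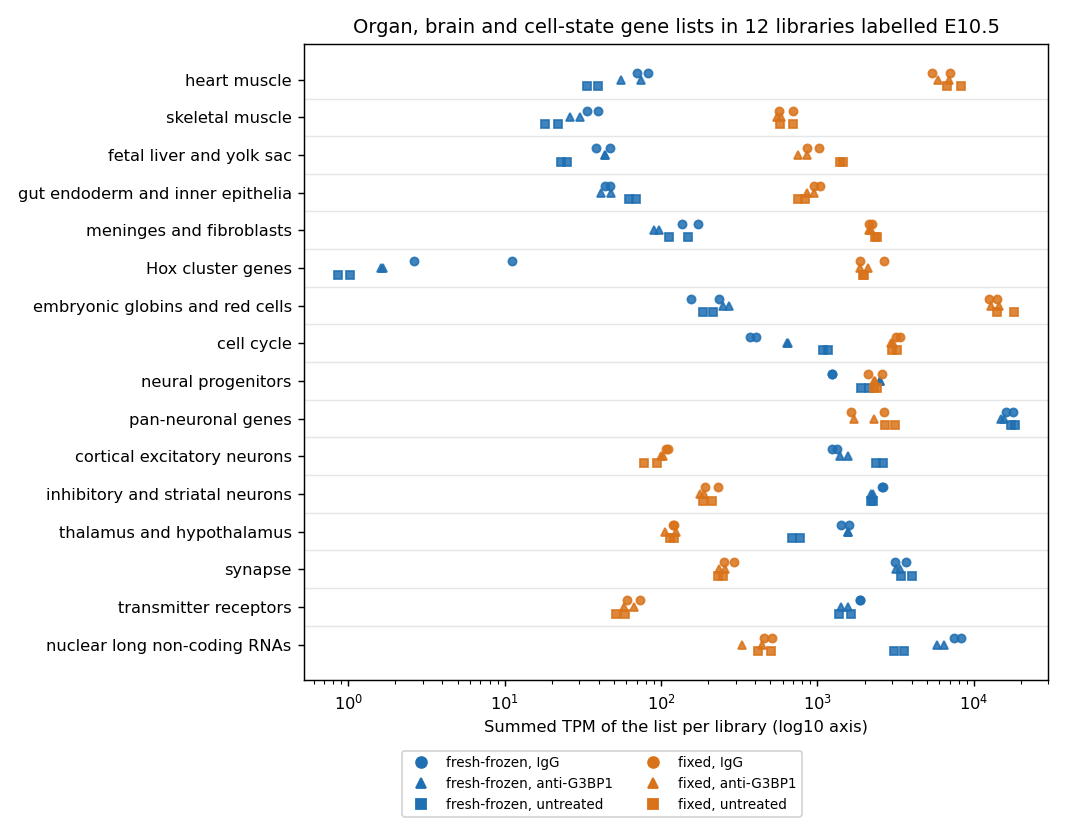
Summed TPM of 16 gene lists (log10 axis) in each of the 12 libraries, with colour for preparation and symbol for treatment. Lists of heart, muscle, liver, gut, Hox genes, embryonic globins and cell cycle lie to the right in the fixed libraries, and lists of neurons, synapses and receptors lie to the right in the fresh-frozen libraries; the Hox sum is 0.861 to 11.1 TPM against 1876 to 2683 TPM.

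Heart muscle transcripts were abundant in the fixed libraries and nearly absent from the fresh-frozen ones. Of 25 tested members 24 were lower and 1 was higher in the fresh-frozen libraries, with a median change of -5.66 beside 0.65 for all genes. The summed level of the list was 33.7, 62.8 and 82.1 TPM in the fresh-frozen libraries (lowest, median and highest of 6, as in all triplets below) and 5379, 6839 and 8275 TPM in the fixed ones, a 113-fold difference of the means. In bulk RNA, fewer cells of a type and less RNA per cell cannot be told apart. The brain libraries, which should hold no heart, had 29.3 to 75.6 TPM at E12.5 and 52.7 to 61.3 TPM at E16.5, so the fresh-frozen sum lay at the level of brain.

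Myl7 (chr11:5896637-5898782 in GRCm38), the atrial myosin light chain, measured 0, 2.44 and 10.9 TPM in fresh-frozen and 1814, 2417 and 3106 TPM in fixed libraries. The change was -9.22 (SE 0.49, limma adjusted p = 2.54e-09). Actc1 (chr2:114047282-114053548), the cardiac alpha actin, measured 0, 2.37 and 3.92 TPM against 1045, 1183 and 1511 TPM, a change of -8.69 (SE 0.27, limma adjusted p = 2.69e-11). No fresh-frozen library overlapped a fixed one for either gene, a condition that genes named for the largest changes had to meet. Myl2, the ventricular light chain, ranged from 0 to 1.87 TPM against 574 to 925 TPM, and Tnnt2, cardiac troponin T, from 0 to 0.454 TPM against 127 to 233 TPM. The one member that was higher in the fresh-frozen libraries was Ryr2, the ryanodine receptor of heart muscle that neurons also use, with 9.34, 13.8 and 23.4 TPM against 1.32, 1.78 and 2.35 TPM and a change of 2.54 (SE 0.20, limma adjusted p = 8.93e-08).

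Skeletal muscle, liver and gut lists followed the same direction. All 15 tested members of the skeletal muscle list were lower in the fresh-frozen libraries, where the list summed to 18.1 to 39.3 TPM against 555 to 702 TPM. In that list Des, the desmin of muscle filaments, changed by -6.01 and Mylpf, a fast myosin light chain, by -4.70. Of 19 tested liver and yolk sac genes 17 were lower and 1 was higher, at sums of 23.1 to 47.3 TPM against 753 to 1462 TPM. The higher one, Amn, a receptor subunit of yolk sac and other epithelia, changed by 0.98, and in centred libraries no member was higher. Afp (chr5:90490737-90508907), the fetal serum protein of yolk sac and liver, measured 0, 0 and 1.04 TPM in fresh-frozen libraries, with a value above 0 in the first IgG library only. In the fixed libraries it measured 196, 243 and 423 TPM, and the change was -7.92 (SE 0.23, limma adjusted p = 1.84e-11). Of 15 tested members of the gut endoderm and inner epithelia list 14 were lower and none higher, and Krt18, a keratin of simple epithelia, measured 0, 0 and 0.845 TPM against 259.5, 287 and 314 TPM (change -8.02, SE 0.15).

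Surface and mesenchymal lists were mostly lower too. None of 12 tested surface ectoderm genes was higher and 10 were lower, among them Krt5, a basal keratin, at -3.36. The list of limb and body-wall mesenchyme had 18 of 20 members lower, with Twist1 at -5.75 and Prrx2 at -4.85, both mesenchymal transcription factors. Its 2 higher members were Shox2, with 38.4, 130.3 and 154 TPM against 9.898, 10.8 and 17.1 TPM (change 2.91, SE 0.23), and Meis2 (change 1.71). Shox2, a homeobox gene of limb and thalamus, measured 79.4 to 141 TPM in E12.5 brain.

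For kidney and gonad primordia the counts were 9 lower and 3 higher of 14, and the summed levels overlapped at 235 to 525 TPM against 253 to 314 TPM. The highest members in the fresh-frozen libraries were Lhx1, a LIM homeobox gene of kidney and brain, at 94.4, 214 and 258 TPM against 7.09, 13.9 and 22.9 TPM (change 3.62, SE 0.37), and Gata3, a zinc-finger factor of kidney and midbrain, at 40.5, 90.4 and 130.2 TPM against 10.3, 17.2 and 23.6 TPM (change 2.12, SE 0.22). Foxd1, of the kidney stroma, changed by -1.58, and Sall1, of the nephric mesenchyme, by -1.11. In the somite and cartilage list 10 of 17 members were lower and 5 higher, or 11 and 3 in centred libraries. Meox1, of the somite, changed by -5.81 and Tcf15, which makes the somite epithelial, by -4.34. The higher members were Sox9, of cartilage and neural progenitors, at 1.54, and 4 genes of somite segmentation and patterning, Ripply2 at 2.40, Uncx at 1.82, Mesp2 at 1.36 and Hes7 at 1.20. Uncx had the highest level of these 4, with 44.5, 123 and 169 TPM against 23.98, 27.4 and 30.9 TPM.

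As a ratio of mean summed levels, Hox genes showed the widest gap of all lists, 658-fold over a fresh-frozen sum near 0. All 22 tested Hox genes were lower in the fresh-frozen libraries, with a median change of -5.59. Their sum was 0.861, 1.64 and 11.1 TPM in the fresh-frozen libraries, the highest value being that of the first IgG library, and 1876, 1968 and 2683 TPM in the fixed libraries. Another 16 of the 39 listed Hox genes appeared only in the fixed table, at 0 to 123 TPM as deposited, and have no fresh-frozen value here. Hoxb9 (chr11:96271457-96276595), of the posterior trunk, measured 0, 0.146 and 0.455 TPM against 439.5, 498 and 694 TPM, with a change of -8.82 (SE 0.15, limma adjusted p = 1.15e-12).

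The E16.5 brain libraries held more Hox transcripts than the fresh-frozen ones. Their Hox sum was 468 to 591 TPM, while E12.5 brain gave 2.96 to 8.72 TPM. Hoxb8 measured 85.4 to 129 TPM and Hoxa5 95.6 to 153 TPM in E16.5 brain. In fresh-frozen libraries the same genes ranged from 0 to 0.286 TPM and from 0 to 0.324 TPM. These sets come from separately normalized tables and no test was made between them.

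Red-cell transcripts differed in the type of globin. Mouse beta-type globin genes lie in 1 cluster on chromosome 7, where Hbb-bh1 and Hbb-y are embryonic and Hbb-bs and Hbb-bt are adult, and the alpha-type cluster on chromosome 11 holds the embryonic Hba-x and the adult Hba-a1 and Hba-a2. The 250 bases upstream of the annotated start are shown for the 3 beta-type genes matched in the RefSeq table used here (GRCm38.p6, minus strand, 5′ to 3′). These genes share the cluster on chromosome 7, and Hbb-y moved against Hbb-bs and Hbb-bt. Hbb-y lies downstream of chr7:103853208-103853457, Hbb-bs of chr7:103827929-103828178 and Hbb-bt of chr7:103813924-103814173. Capitals mark 3 motifs on either strand: CACCC, the box CCAAT, and the GATA-type word AGATAA. In Hbb-bt a reverse copy of the box directly precedes a forward one, and no matches overlap.
Hbb-y: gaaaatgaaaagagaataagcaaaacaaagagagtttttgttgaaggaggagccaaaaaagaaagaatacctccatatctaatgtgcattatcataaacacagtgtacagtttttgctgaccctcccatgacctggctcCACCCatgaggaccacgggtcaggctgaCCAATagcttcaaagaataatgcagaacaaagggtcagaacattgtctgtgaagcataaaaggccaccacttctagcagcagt
Hbb-bs: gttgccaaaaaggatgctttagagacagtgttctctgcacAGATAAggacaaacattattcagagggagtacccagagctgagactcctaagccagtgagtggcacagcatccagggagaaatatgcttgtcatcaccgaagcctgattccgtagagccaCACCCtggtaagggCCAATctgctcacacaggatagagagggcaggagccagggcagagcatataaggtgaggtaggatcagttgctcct
Hbb-bt: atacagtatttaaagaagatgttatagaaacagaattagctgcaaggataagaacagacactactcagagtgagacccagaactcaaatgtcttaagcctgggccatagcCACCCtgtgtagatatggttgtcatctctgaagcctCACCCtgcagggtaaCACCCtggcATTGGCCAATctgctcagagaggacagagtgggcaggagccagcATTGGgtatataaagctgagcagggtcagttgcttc
CACCC lay 111 bases upstream of the start in Hbb-y, 90 in Hbb-bs and 140, 104 and 89 in Hbb-bt. CCAAT lay 83, 76 and 75 bases upstream in the same order, with reverse copies at 80 and 36 in Hbb-bt. AGATAA occurred once, 210 bases upstream of Hbb-bs. Of 32851 RefSeq promoter windows of this length 52.0% held CACCC, 33.8% held CCAAT and 9.99% held AGATAA on either strand, so these matches describe the sequences and identify no site.

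The embryonic beta globin Hbb-bh1 (chr7:103841637-103843164) measured 0, 0 and 1.98 TPM in the fresh-frozen libraries and 3284, 4029 and 4576 TPM in the fixed ones. Its change, -11.46 (SE 0.27, limma adjusted p = 4.26e-12), was the largest decrease of all tested genes. Hbb-y measured 63.9, 104 and 142 TPM against 3899, 4449.6 and 5659.7 TPM (change -5.45, SE 0.17). The adult gene Hbb-bs went the other way, at 362, 517 and 1076 TPM against 13.5, 19.6 and 26.6 TPM, with a change of 4.77 (SE 0.21, limma adjusted p = 4.23e-10). Hbb-bt followed it at 147, 192 and 366 TPM against 18.04, 33.9 and 43.3 TPM (change 2.61, SE 0.18). For each of these 4 genes the ranges of the preparations did not overlap. For genes named for the largest changes, such as Hbb-bh1, that was a condition of the naming. The near-identical adult copies may share reads, so their separate levels are uncertain.

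Of all beta-type globin TPM, the embryonic genes made up 6.34 to 17.4% (median 13.7%) in fresh-frozen libraries and 99.3 to 99.6% (median 99.3%) in fixed ones. In brain the share was 97.2 to 97.8% at E12.5 and 1.41 to 2.19% at E16.5. By this ratio, which does not depend on the amount of blood in a section, the fresh-frozen libraries lay between the 2 brain stages. Embryonic Hba-x, the zeta-type chain, measured 19.99, 34.95 and 55.3 TPM against 4889, 5541 and 7708 TPM (change -7.38, SE 0.17). The adult alpha genes were lower as well, with changes of -2.87 for Hba-a1 (SE 0.14) and -1.77 for Hba-a2 (SE 0.16), and they too are near-identical copies. Of the 4 adult globins 2 were thus higher and 2 lower, and their sums overlapped at 639 to 1683 TPM against 1122 to 1578 TPM. Of 10 tested genes in the list of embryonic globins and red cells 8 were lower and 1 was higher. The higher one, Tal1, a factor of blood precursors that midbrain neurons also express, measured 27.05, 46.96 and 68.5 TPM against 5.61, 7.54 and 10.2 TPM (change 2.39, SE 0.17).

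**Figure D2:**
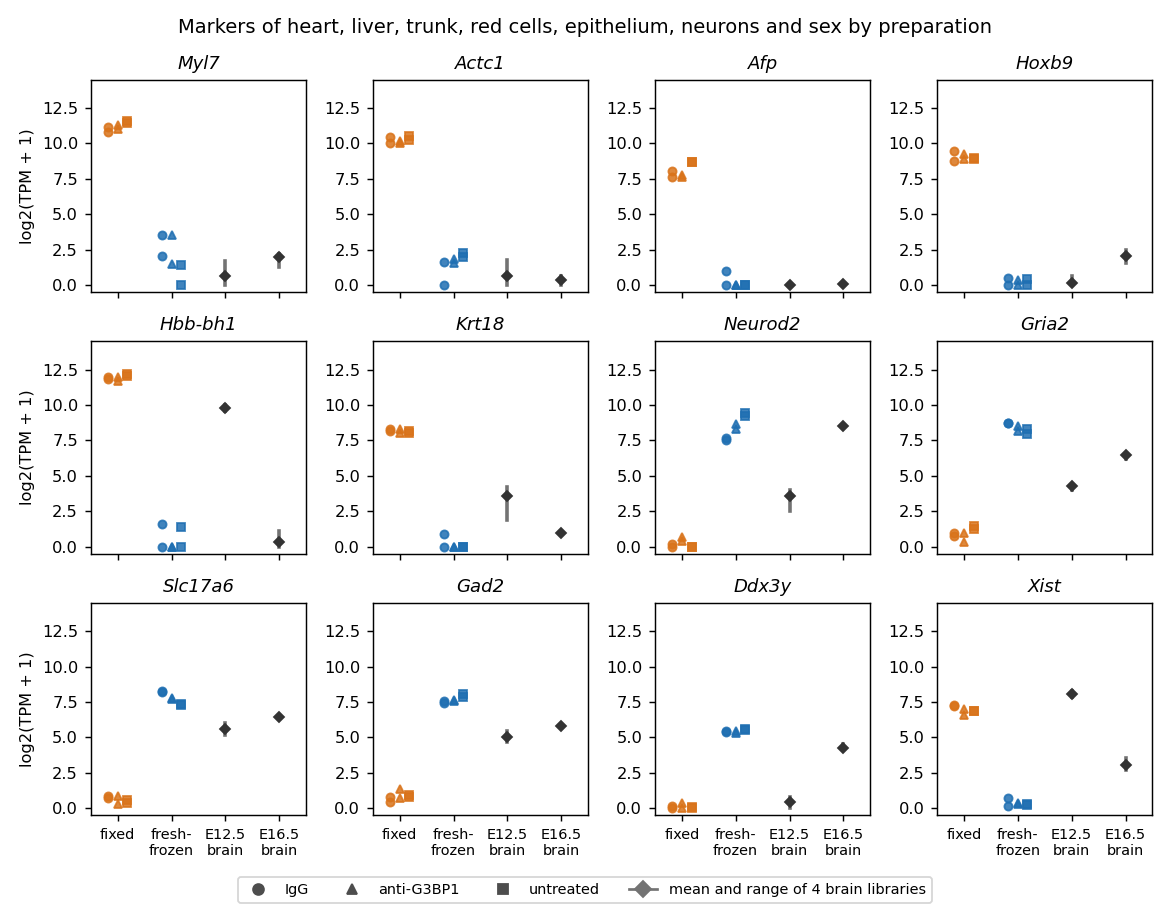
Level of 12 marker genes as log2(TPM + 1) in each E10.5 library, with the mean and range of 4 libraries for E12.5 and E16.5 brain. Myl7, Actc1, Afp, Hoxb9, Hbb-bh1 and Krt18 are high in all fixed libraries and at most 10.9 TPM in the fresh-frozen ones, and Neurod2, Gria2, Slc17a6, Gad2 and Ddx3y show the reverse.

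Of 15 tested genes of neural crest and peripheral neurons 11 were lower and 3 higher. Sox10, of crest and its glia, changed by -2.13. Pou4f1, of sensory and habenular neurons, was higher at 2.59. The lens, retina and pigment cell list had 1 member higher (Six6, 1.85) and 1 lower (Cryab, -5.02) of 7, or none and 4 in centred libraries. The pituitary list had 1 higher (Tshb, 1.81) and 2 lower (Lhx3, -4.11, and Lhb, -1.75) of 5, or 1 and 4 in centred libraries. No placental gene could be tested.

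Vessel transcripts were present in both preparations. Of 15 tested endothelial genes 3 were higher and 8 lower, against 1 and 12 in centred libraries. Sums were 179 to 246 TPM against 362 to 434 TPM. Plvap, the diaphragm protein of leaky vessels that brain capillaries lose, changed by -4.99 (SE 0.17). Of 9 blood-brain barrier genes 6 were higher and 2 lower, or 5 and 3 in centred libraries, beside 55.5% of all genes called higher. Their sum was lower in the fresh-frozen libraries, at 391 to 569 TPM against 601 to 699 TPM. Cldn5, a tight-junction claudin, measured 46.6, 98.9 and 120.2 TPM against 29.7, 36.3 and 44.3 TPM with a change of 1.26 (SE 0.14, limma adjusted p = 3.90e-06), and Slc7a5, the large amino acid transporter, changed by 0.81, or -0.030 in centred libraries. The glucose transporter Slc2a1 went against the list at 61.6, 78.01 and 102 TPM against 361, 386 and 432 TPM (change -2.27, SE 0.11).

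Mural genes were called in both directions. Kcnj8, a potassium channel of brain pericytes, measured 11.4, 16.9 and 25.7 TPM against 0, 1.41 and 2.001 TPM (change 3.16, SE 0.27). Acta2, smooth muscle actin, measured 1.33, 3.41 and 5.39 TPM against 436, 512 and 632 TPM (change -7.00, SE 0.15). In all, 4 of 10 mural genes were higher and 5 lower, or 3 and 6 in centred libraries. Of 14 macrophage and microglia genes 5 were higher and 4 lower, against 1 and 9 in centred libraries. Tmem119, a microglial marker that bone-forming mesenchyme also expresses, measured 1.01, 2.29 and 3.29 TPM against 60.2, 70.7 and 83.3 TPM (change -4.54, SE 0.18).

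Meningeal and fibroblast genes were lower in the fresh-frozen libraries in 10 of 12 cases. Their sums were 89.8 to 173 TPM against 2121 to 2394 TPM, while E12.5 brain gave 552 to 864 TPM and E16.5 brain 143 to 178 TPM. Crabp2, a retinoic acid carrier, measured 12.2, 29.2 and 48.7 TPM against 1160.1, 1293 and 1378 TPM (change -5.61, SE 0.22). Col1a1, the fibrillar collagen of connective tissue, measured 5.68, 15.4 and 27.95 TPM against 317, 336 and 472 TPM (change -4.59, SE 0.24). The one higher member, Ogn, changed by 0.85 and was not higher in centred libraries.

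Neuronal transcripts dominated the fresh-frozen side. Of 20 pan-neuronal genes 18 were higher and 1 lower, with a median change of 3.38, and the list summed to 14854, 16763 and 18236 TPM against 1639, 2473 and 3142 TPM. In E16.5 brain the sum was 14632 to 14902 TPM and in E12.5 brain 6706 to 8086 TPM. Tubb3, the tubulin of young neurons, measured 1727, 2083 and 3182 TPM against 424, 729 and 918 TPM (change 1.75, SE 0.15). Mapt (chr11:104231390-104332090), the axonal protein tau, measured 907, 993 and 1192 TPM against 4.77, 8.75 and 14.9 TPM, with a change of 6.69 (SE 0.16, limma adjusted p = 4.37e-12). The gap was wider for tau than for the tubulin, which the fixed libraries also held. The neurofilament Nefm was the lower member, at 53.7, 62.6 and 67.6 TPM against 56.01, 106 and 140.3 TPM (change -0.66, adjusted p = 0.00773), and its ranges overlapped. Stmn3, a tubulin-binding protein of axons, measured 1164, 1467 and 1770 TPM against 71.8, 113 and 162 TPM (change 3.67), and Myt1l, a zinc-finger factor of postmitotic neurons, ranged from 221 to 322 TPM against 0 to 0.473 TPM.

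Markers of cortical excitatory neurons were higher in all 19 tested cases, and in 18 of 19 in centred libraries. The list summed to 1237, 1482 and 2618 TPM in fresh-frozen and 78.2, 101 and 110.2 TPM in fixed libraries, beside 317 to 383 TPM in E12.5 and 1475 to 1667 TPM in E16.5 brain. Neurod2 (chr11:98325415-98329648), a basic helix-loop-helix factor of young cortical neurons, measured 184, 357 and 691 TPM against 0, 0.0791 and 0.621 TPM. Its change was 8.25 (SE 0.25, limma adjusted p = 2.45e-11). Bcl11b, of corticospinal and striatal neurons, measured 234, 308 and 406 TPM against 2.41, 3.25 and 5.06 TPM (change 6.08, SE 0.13). No library of one preparation reached a library of the other for either gene. Genes named for the largest changes, Neurod2 among them, had to meet that condition, so it is no separate result. Neurod6, another cortical factor, was listed only in the fresh-frozen table, at 32.5 to 510 TPM as deposited.

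Inhibitory and striatal markers were higher for 17 of 20 genes and lower for 1 (Rarb, -0.71). The list summed to 2188 to 2632 TPM against 177 to 232 TPM, and to 2699.8 to 3139 TPM in E16.5 brain. Gad2 (chr2:22622205-22693874), which makes the transmitter GABA, measured 167, 192 and 265 TPM against 0.3801, 0.733 and 1.53 TPM, a change of 6.83 (SE 0.13, limma adjusted p = 1.64e-12). Dlx1, a homeobox factor of forebrain interneurons, measured 106, 170.5 and 221 TPM against 1.12, 2.42 and 4.06 TPM (change 5.57, SE 0.24). The neuropeptides Sst and Npy measured 299 to 1139 TPM against 17.3 to 65.3 TPM and 119.6 to 384 TPM against 0 to 9.65 TPM.

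The list of thalamus and hypothalamus had 15 of 17 members higher and none lower, or 13 and 1 in centred libraries. Its fresh-frozen sums, 686, 1488 and 1580.1 TPM, lay above those of both brain stages, 602 to 670.2 TPM at E12.5 and 465 to 529 TPM at E16.5. Slc17a6 (chr7:51622006-51671119), the vesicular glutamate transporter of thalamus and brainstem, measured 154, 211 and 308 TPM against 0.217, 0.581 and 0.832 TPM, a change of 7.15 (SE 0.13, limma adjusted p = 1.15e-12). Tcf7l2, of thalamic neurons, measured 46.4, 139 and 319 TPM against 10.7, 14.1 and 15.9 TPM (change 3.17, SE 0.31). Otp, of hypothalamic neuroendocrine cells, measured 135, 189.7 and 430.1 TPM against 1.42, 6.49 and 14.2 TPM (change 5.12, SE 0.40). Tcf7l2 was at 190.0 to 288 TPM in E12.5 and 8.29 to 9.77 TPM in E16.5 brain.

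Cerebellar markers were higher for 11 of 13 genes and lower for none, or 9 and 1 in centred libraries. Neurod1, of granule neurons, changed by 2.95 (SE 0.25) and Cbln1, a synapse organizer that granule neurons secrete, by 1.49. Of 17 patterning genes of midbrain and hindbrain 8 were higher and 8 lower, or 6 and 8 in centred libraries. Pax5, of the midbrain, measured 20.3, 65.05 and 71.2 TPM against 0.925, 1.52 and 3.17 TPM (change 4.26, SE 0.21), and Otx2, of forebrain and midbrain, changed by 3.22 (SE 0.16). The signals of the midbrain-hindbrain boundary were lower: Fgf8 measured 0, 0.884 and 4.18 TPM against 40.3, 69.4 and 88.6 TPM (change -4.93) and Wnt1 0, 1.39 and 3.78 TPM against 27.4, 42.8 and 49.3 TPM (change -4.21). Atoh1, of the hindbrain rhombic lip, measured 0, 0 and 0.355 TPM against 7.72, 15.2 and 18.4 TPM (change -3.80).

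Synapse and receptor genes moved as whole lists. All 25 synaptic genes and all 21 tested transmitter receptors were higher in the fresh-frozen libraries, in centred libraries as well, with median changes of 3.85 and 4.81. Synaptic genes summed to 3148 to 4037 TPM against 232 to 292 TPM, and receptors to 1382 to 1877 TPM against 51.7 to 73.6 TPM. Gria2 (chr3:80681450-80802835), the AMPA receptor subunit that sets calcium permeability, measured 251, 344 and 430.2 TPM against 0.276, 0.945 and 1.72 TPM, with a change of 7.45 (SE 0.18, limma adjusted p = 5.60e-12). Syt1, the calcium sensor of synaptic vesicles, measured 228, 282 and 298 TPM against 1.79, 3.02 and 4.89 TPM (change 6.04, SE 0.16). In E16.5 brain Gria2 was at 71.5 to 97.8 TPM and Syt1 at 112 to 134 TPM, so the fresh-frozen values exceeded the later brain for both genes. Whether they differ beyond the separate normalization was not tested.

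Astroglial genes were higher in 10 of 13 tested cases and lower in 2. Of 13 oligodendroglial genes 9 were higher and none lower, or 6 and 3 in centred libraries, so this list lay close to the 55.5% of all genes called higher. Slc1a2, the glutamate transporter of astrocytes and radial glia, measured 113, 118 and 134 TPM against 4.11, 5.79 and 7.57 TPM (change 4.18, SE 0.11). The connexin Gja1 went the other way at -2.53 (SE 0.14). Mog, a late myelin protein, measured 24.7, 35.5 and 47.8 TPM against 0, 1.32 and 2.62 TPM (change 4.03, SE 0.23), and E16.5 brain held 36.7 to 59.1 TPM. The astrocyte markers Gfap and Aqp4 did not pass the filter, and neither did the oligodendroglial members Mobp, Ermn and Enpp6. Another oligodendroglial member, Opalin, was listed only in the fresh-frozen table, at 0 to 1.01 TPM as deposited. Of 12 choroid plexus genes 4 were higher and 5 lower, or 3 and 8 in centred libraries. The sums of that list overlapped at 126 to 203 TPM against 152 to 262 TPM. Its secreted carrier Ttr measured 0, 1.17 and 3.95 TPM against 81.6, 105 and 214 TPM (change -5.91, SE 0.27).

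Neural progenitor genes were mixed. Of 18 members 5 were higher and 7 lower, or 3 and 12 in centred libraries, and the sums overlapped at 1233 to 2503 TPM against 2099 to 2577 TPM. The glutamate transporter of radial glia, Slc1a3, measured 16.1, 55.9 and 90.9 TPM against 7.17, 9.48 and 10.6 TPM (change 2.16, SE 0.33). Sox1, of the neuroepithelium, changed by 1.53. Vimentin, Vim, was lower at 166, 397 and 535 TPM against 710.4, 816 and 838 TPM (change -1.32, SE 0.18). For Nes, an intermediate filament, and Fabp7, a fatty acid carrier of radial glia, the changes of -0.11 and -0.29 did not pass the test.

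Dividing-cell transcripts were lower in the fresh-frozen libraries for 21 of 22 genes, with a median change of -2.62. The list summed to 368, 642 and 1161 TPM against 2962, 3118 and 3368 TPM, and to 2071 to 2394 TPM in E12.5 and 843 to 907 TPM in E16.5 brain. Rrm2 (chr12:24708241-24714146), the ribonucleotide reductase subunit of S phase, measured 5.29, 18.01 and 54.3 TPM against 281, 305 and 359 TPM, with a change of -3.95 (SE 0.35, limma adjusted p = 3.48e-07). Pcna, the replication clamp, measured 15.9, 20.5 and 68.4 TPM against 172, 222 and 277 TPM (change -3.05, SE 0.21). The member that did not pass was Cenpf, a kinetochore protein named outside the rule for named genes, at 0.062 here and -0.78 in centred libraries.

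Genes that decline with developmental time were lower for 8 of 11 tested members and higher for 1 (Lin28b, 0.59, or -0.25 in centred libraries). The list summed to 176 to 206 TPM against 895 to 1096 TPM. In brain the sum was 291 to 330 TPM at E12.5 and 124 to 134 TPM at E16.5. Another member, Dppa5a, was listed only for the fresh-frozen libraries, at 6.75 to 39.3 TPM as deposited. Hmga2, a chromatin protein of early embryos, measured 4.75, 6.06 and 10.4 TPM against 219, 254 and 321 TPM, a change of -5.12 (SE 0.14, limma adjusted p = 1.20e-11). Lin28a, which blocks let-7 processing, measured 0.212, 0.712 and 2.43 TPM against 34.2, 40.3 and 45.9 TPM (change -4.44, SE 0.19). In brain Hmga2 was at 33.8 to 43.2 TPM at E12.5 and 4.68 to 6.18 TPM at E16.5, and the fresh-frozen values overlapped those of the later stage.

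Of 18 imprinted growth genes 7 were higher and 9 lower, or 4 and 11 in centred libraries. H19 (chr7:142575529-142578143), the maternally expressed non-coding RNA, measured 73.4, 107 and 156 TPM against 6917, 7557 and 8206 TPM, a change of -6.18 (SE 0.13, limma adjusted p = 1.81e-12). Its paternally expressed neighbour Igf2, a fetal growth factor, measured 47.9, 106 and 142 TPM against 863, 880.4 and 990.0 TPM (change -3.33, SE 0.20). The non-coding RNA Meg3 was higher at 1058, 1981 and 2621 TPM against 88.3, 101 and 131 TPM (change 4.07, SE 0.15).

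Stress lists held calls in both directions, and glycolysis genes were mostly lower in the fresh-frozen libraries. Of 11 immediate early genes 6 were higher and 4 lower, or 2 and 6 in centred libraries, and Ier2, a serum-induced factor, measured 11.2, 18.1 and 23.5 TPM against 104, 123 and 156 TPM (change -2.89). Of 16 heat shock and unfolded protein genes 6 were higher and 9 lower, or 2 and 11 in centred libraries. Hspe1, the mitochondrial chaperonin partner, measured 29.7, 43.9 and 63.1 TPM against 361, 377 and 449.6 TPM (change -3.17), and Hspa1a, the induced heat shock protein, changed by 1.66. Of 16 hypoxia and glycolysis genes 11 were lower and 4 higher. Among the lower ones Eno1, an enolase, measured 35.2, 45.9 and 60.4 TPM against 518, 564 and 584 TPM (change -3.61, SE 0.10) and Aldoa, an aldolase, 102, 128 and 167 TPM against 942, 955 and 1037 TPM (change -2.94, SE 0.10). Vegfa, the hypoxia-induced vessel growth factor, changed by 1.27. Annotated copies of glycolytic enzymes elsewhere in the genome may take part of their reads.

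G3bp1 (chr11:55469685-55504838), the target of the antibody and a nucleator of stress granules, was lower in the fresh-frozen libraries at 94.9, 105 and 120.0 TPM against 159.7, 200.3 and 222 TPM. The change was -0.87 (SE 0.10, limma adjusted p = 2.84e-06). G3bp2, its paralogue, was higher at 141, 152 and 235 TPM against 55.1, 57.2 and 65.7 TPM (change 1.53, SE 0.11). Caprin1, a binding partner of both, changed by 0.12 (adjusted p = 0.523) and by -0.72 in centred libraries, so its sign depends on the scaling. In the list of 16 granule partners 6 were higher and 3 lower, or 3 and 12 in centred libraries. Tia1, a granule RNA-binding protein, measured 171, 189.8 and 220.0 TPM against 20.98, 25.8 and 30.6 TPM (change 2.85, SE 0.084).

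Endogenous deaminases matter for an assay that reads editing. Of 6 tested deaminase genes 3 were higher and 1 lower, or 3 and 2 in centred libraries. Adarb2, a brain ADAR with no known editing activity, measured 34.8, 43.4 and 55.6 TPM against 0.183, 0.261 and 0.486 TPM (change 5.12, SE 0.14), and Adarb1, the neuronal A-to-I editor, changed by 2.15. Apobec2, of heart and skeletal muscle, measured 0, 1.87 and 4.64 TPM against 32.01, 37.6 and 49.7 TPM (change -3.93, SE 0.35).

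The treatment groups differed within the fresh-frozen libraries far more than within the fixed ones. With limma, 3164 genes differed among the 3 treatments in the fresh-frozen libraries (6184 at an unadjusted p under 0.05) and 14 in the fixed libraries (2081 unadjusted). The preparation-by-treatment interaction, which tests that difference itself, called 1040 genes (5.23%; 4587 unadjusted). The antibody libraries, IgG and anti-G3BP1 together, were higher than the untreated ones for 1686 genes (8.48%) and lower for 2071 (10.4%) in the fresh-frozen set. In the fixed set 6 were higher (0.0302%) and 2 lower (0.0101%). Antibody, fusion, fixation label and section cannot be told apart in this contrast, here or in the gene lists below. Single libraries weighed on these counts. The interaction moved by over 1.5 times without any one library except the second fresh-frozen IgG library, from 357 genes without the first fixed IgG library to 1904 without the first fixed untreated one. Without the latter the antibody contrast in fixed libraries called 731 genes. In the fresh-frozen set, treatment called 1624 and 1614 genes without the first and the second untreated library, and the antibody contrast 1961 and 1938.

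All 22 cell-cycle genes were lower in the fresh-frozen antibody libraries than in the untreated ones, and 19 of 22 had an interaction. The list summed to 368 and 402 TPM with IgG, 646 and 637 TPM with anti-G3BP1 and 1078 and 1161 TPM untreated. Rrm2 measured 5.29 and 9.21 TPM with IgG, 18.9 and 17.1 TPM with anti-G3BP1 and 54.2 and 54.3 TPM untreated, and the antibody libraries differed from the untreated by -2.16 (SE 0.17, limma adjusted p = 1.43e-04). Cdc20, an activator of mitotic exit, measured 18.2 and 15.8 TPM with IgG, 40.6 and 37.4 TPM with anti-G3BP1 and 76.6 and 83.8 TPM untreated, with a difference of -1.60 (SE 0.093, limma adjusted p = 6.49e-05). In the fixed libraries Cdc20 differed by 0.043 (adjusted p = 0.888). The IgG libraries held less of both than the anti-G3BP1 libraries, without overlap. The kind of antibody and the section cannot be told apart.

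Regional markers moved in opposite directions within the fresh-frozen set. Of 19 cortical markers 10 were lower in the antibody libraries and none higher, and the list summed to 1237 and 1338 TPM with IgG, 1404 and 1561 TPM with anti-G3BP1 and 2618 and 2361 TPM untreated. Neurod2 measured 184 and 202 TPM with IgG, 317 and 398 TPM with anti-G3BP1 and 691 and 603 TPM untreated, a difference of -1.30 (SE 0.15, limma adjusted p = 6.78e-04). The cortical gene listed in the fresh-frozen table alone, Neurod6, measured 58.0 and 32.5 TPM with IgG, 80.9 and 101 TPM with anti-G3BP1 and 510 and 498 TPM untreated, as deposited. The untreated libraries were the highest in each case.

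Of 17 thalamic and hypothalamic markers 11 were higher in the antibody libraries and 1 lower, and the list summed to 1412 and 1580.1 TPM with IgG, 1565 and 1577 TPM with anti-G3BP1 and 686 and 776 TPM untreated. Tcf7l2 measured 271 and 319 TPM with IgG, 155 and 122 TPM with anti-G3BP1 and 57.97 and 46.4 TPM untreated, a difference of 1.94 (SE 0.14, limma adjusted p = 1.03e-04). Lhx9, also of thalamus, measured 194 and 189.6 TPM with IgG, 120.1 and 107 TPM with anti-G3BP1 and 46.5 and 41.1 TPM untreated, a difference of 1.73 (SE 0.18, limma adjusted p = 4.15e-04). En2, of midbrain and anterior hindbrain, measured 140.1 and 157 TPM with IgG, 143 and 105 TPM with anti-G3BP1 and 28.4 and 25.9 TPM untreated, a difference of 2.27 (SE 0.21, limma adjusted p = 2.37e-04). In the list that holds En2, midbrain and hindbrain patterning, 3 of 17 tested members were higher in the fresh-frozen antibody libraries and 3 lower. For Tcf7l2, Lhx9 and En2 the untreated libraries were the lowest. In the fixed set these 3 genes differed between antibody and untreated libraries by -0.11 (adjusted p = 0.789), 0.48 (adjusted p = 0.3395) and -0.69 (adjusted p = 0.238). The interaction gave adjusted p-values of 0.00275, 0.0476 and 0.00304.

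**Figure D3:**
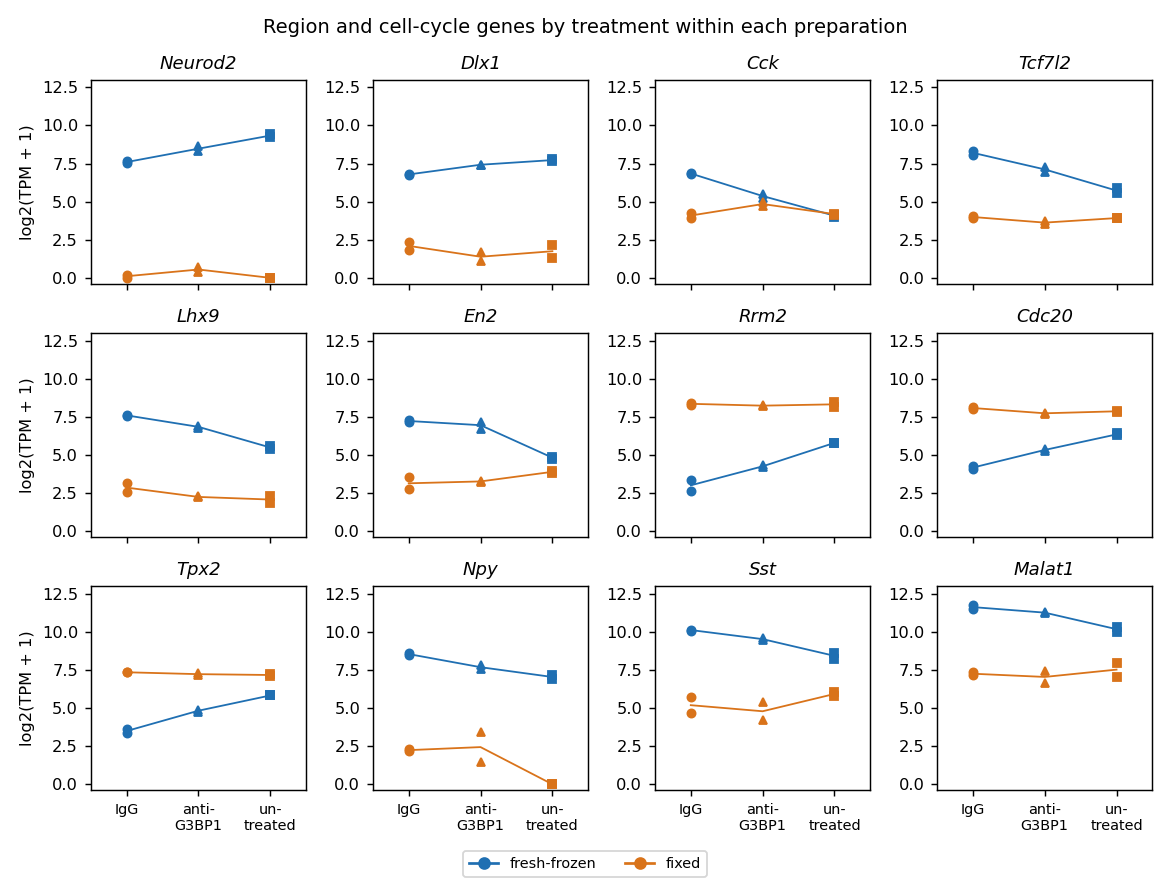
Level of 12 regional, peptide, cell-cycle and nuclear RNA genes as log2(TPM + 1) by treatment in each preparation, with 1 point per library and lines through the group means. In the fresh-frozen libraries Neurod2, Rrm2, Cdc20 and Tpx2 are highest untreated and Tcf7l2, Lhx9, En2 and Cck lowest, while the fixed means of these 8 genes differ less between treatments.

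The interaction was strongest by p for 5 genes. Tpx2, a spindle protein, measured 11.3 and 9.35 TPM with IgG, 28.6 and 26.3 TPM with anti-G3BP1 and 55.7 and 55.9 TPM untreated in the fresh-frozen set, and the adjusted p of the interaction was 9.21e-04. Cdc20 had the same value of 9.21e-04. Cck, a neuropeptide of cortex and midbrain, measured 119 and 109 TPM with IgG, 43.4 and 37.5 TPM with anti-G3BP1 and 15.2 and 16.6 TPM untreated in the fresh-frozen and 14.48 and 17.7 TPM with IgG, 29.9 and 25.6 TPM with anti-G3BP1 and 16.8 and 17.6 TPM untreated in the fixed libraries (interaction adjusted p = 9.95e-04). Cck was higher in the fresh-frozen antibody libraries than in any fixed one, and its change over all libraries was 1.06 (SE 0.37, limma adjusted p = 0.0176), or 0.22 in centred libraries. Ezr, ezrin of the apical membrane, measured 20.3 and 22.3 TPM with IgG, 48.5 and 52.1 TPM with anti-G3BP1 and 82.02 and 90.5 TPM untreated (interaction adjusted p = 0.00111) and did not differ past the threshold over all libraries (change -0.54, adjusted p = 0.0849). The fifth, the predicted gene Gm47283, measured 109 and 109 TPM with IgG, 88.2 and 94.7 TPM with anti-G3BP1 and 25.00 and 26.6 TPM untreated in the fresh-frozen set and 129 to 163 TPM in the fixed set (interaction adjusted p = 9.21e-04). The annotation places Gm47283 on chromosome Y.

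Nuclear non-coding transcripts made up more of the fresh-frozen libraries. Of 7 nuclear long non-coding RNAs 6 were higher and none lower, and the list summed to 8219.9 and 7446 TPM with IgG, 5812 and 6465 TPM with anti-G3BP1 and 3593 and 3083 TPM untreated in the fresh-frozen set against 329.6 to 513 TPM in the fixed set. Malat1 (chr19:5795690-5802672), an abundant RNA of nuclear speckles, measured 1024, 2456 and 3492 TPM against 99.01, 152 and 251 TPM, with a change of 3.75 (SE 0.28, limma adjusted p = 6.44e-08). In brain it was at 126 to 244 TPM at E12.5 and 119 to 148 TPM at E16.5, below every fresh-frozen library. Snhg11, a neuronal non-coding RNA, measured 433, 816 and 1357 TPM against 11.9, 17.1 and 25.1 TPM (change 5.34, SE 0.23). Cdr1, at 144, 254 and 707 TPM against 0, 0 and 0.8201 TPM (change 7.94, SE 0.34), lies opposite the circular RNA Cdr1as, and the strand of the reads is not given, so the 2 cannot be separated here. It measured 0.453 to 0.962 TPM in E16.5 brain.

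Gene models that lie inside an intron of another gene on the same strand, the sense-intronic type of the annotation, were higher for 177 of 192 tested members and lower for 1, with a median change of 3.002. In centred libraries 160 were higher and 5 lower. The type was singled out after its values were seen. Its share of TPM over shared genes was 0.443% ± 0.0821 (SD, n = 6) in fresh-frozen and 0.0322% ± 0.00561 (SD, n = 6) in fixed libraries. The exact two-sided permutation of preparation within treatments gave the smallest p that its arrangements allow, 0.00926 (adjusted over 5 measures 0.0116). Over the deposited tables the brain shares were 0.0369 to 0.0583% at E12.5 and 0.0656 to 0.0751% at E16.5, against 0.342 to 0.585% in fresh-frozen libraries. Gm43560 (chr3:144523229-144524001), within an intron of Hs2st1, measured 32.3, 90.4 and 152 TPM against 0, 0 and 0.643 TPM. Gm43774 (chr3:94536611-94537488), within Snx27, measured 57.3, 74.5 and 122 TPM against 0, 1.46 and 2.73 TPM. Reads from an intron of the host gene and from such a model cannot be told apart.

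Other types stood between. Antisense genes were higher in 1044 and lower in 210 of 1562 cases (median 1.46), and lincRNAs in 476 and 85 of 733 (median 1.41). Protein-coding genes were higher in 8194 and lower in 4218 of 14904 cases (median 0.54), and processed pseudogenes in 626 and 529 of 1644 (median 0.10). Among protein-coding genes the median change increased with the span of the gene in the annotation. It was -0.058 below 10 kb (n = 3786), 0.31 from 10 to 30 kb (n = 4716), 0.82 from 30 to 100 kb (n = 4168) and 1.63 above 100 kb (n = 2221). Against E16.5 brain the medians of the fresh-frozen libraries were -0.20, -0.025, 0.20 and 0.58 in the same bins, and those of E16.5 brain against the fixed libraries 0.038, 0.23, 0.46 and 0.89. Neuronal genes are often long, and the part of tissue content in this gradient was not tested.

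**Figure D4:**
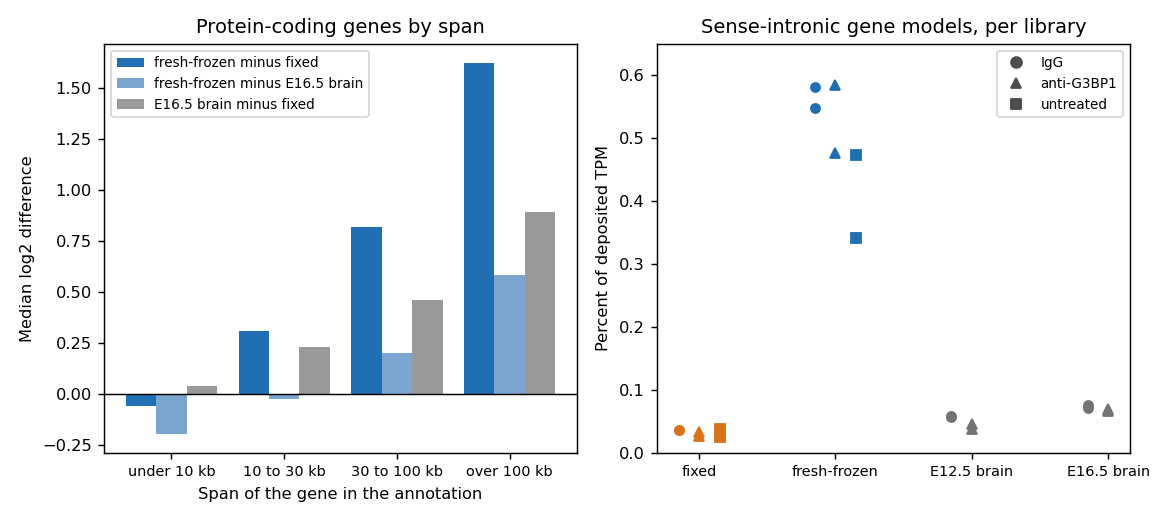
Left, median log2 difference of protein-coding genes in 4 bins of gene span, for fresh-frozen minus fixed, fresh-frozen minus E16.5 brain and E16.5 brain minus fixed. Right, percent of deposited TPM in sense-intronic gene models per library, 0.342 to 0.585% in the 6 fresh-frozen libraries and at most 0.0751% in all 14 others.

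Fresh-frozen libraries also spread their TPM over more genes. Over the shared genes they held 20039 ± 663 (SD, n = 6) genes at 1 TPM or more against 17590 ± 261 (SD, n = 6). The 100 highest genes took 16.1% ± 1.13 against 27.7% ± 2.13 of TPM, and mitochondrially encoded genes 4.997% ± 0.421 against 9.86% ± 0.899. Each of these gave the smallest exact permutation p, 0.00926 (adjusted 0.0116). The protein-coding share, 89.6% ± 0.913 against 88.6% ± 0.865, had an exact p of 0.0926.

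Read depth at editing sites gave a second readout of the same libraries. Both E10.5 editing tables list 3286 sites in common, and 2226 tested genes had 20 or more covering reads per library there on average. Across these genes the log2 difference of scaled coverage and the TPM difference correlated at r = 0.766, and of the 1897 called genes among them 82.7% had the same sign in both. The readouts share their libraries, and genes are not independent, so this is a description. The median gene had 1 shared site. Myl7, Actc1, Afp, Hoxb9 and Krt18 had no site listed in the fresh-frozen set. Neurod2, Gria2, Gad2 and Slc17a6 had none in the fixed set, so this readout does not cover these 9 markers. Reads at the shared sites ranged from 179946 to 312777 per fresh-frozen library. Per fixed library they ranged from 94021 in the second untreated to 577765 in the first IgG library. The part of this spread in the treatment and interaction counts was not tested. No depth of the TPM tables themselves is given in the files.

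Xist and the Y-linked members of the sex-chromosome list separated the preparations completely. The predicted Gm47283, also annotated on chromosome Y, did not follow them, with 25.00 to 109 TPM in the fresh-frozen and 129 to 163 TPM in the fixed libraries. Xist, the non-coding RNA of the inactive X chromosome, measured 0.102, 0.227 and 0.675 TPM in the fresh-frozen and 93.1, 119.9 and 156 TPM in the fixed libraries, a change of -6.62 (SE 0.14, limma adjusted p = 1.86e-12). Ddx3y (chrY:1260771-1286629), a Y-linked helicase, measured 37.9, 42.5 and 46.5 TPM against 0, 0.0384 and 0.3002 TPM, and Kdm5d, a Y-linked demethylase, 20.3, 27.8 and 40.1 TPM against 0, 0 and 0.0526 TPM. Their changes were 5.34 (SE 0.13) and 4.85 (SE 0.16). The Y-linked Uty and Eif2s3y were listed only in the fresh-frozen table, at 16.1 to 22.1 TPM and 65.5 to 157 TPM as deposited. E12.5 brain held Xist at 226 to 316 TPM and Ddx3y at 0 to 0.749 TPM, and E16.5 brain 5.36 to 10.7 TPM and 15.9 to 22.02 TPM.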

How the data were processed

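The 12 libraries labelled E10.5 were grouped by preparation and treatment as the labels give them, with 2 libraries in each of 6 groups. Expression values are TPM made by the authors, deposited in 1 table per preparation. Each deposited editing table gives counts per site and library, per the file headers, of covering and edited reads, and only the covering reads were used here. Per the submitters' processing notes, the reads were handled with HISAT2 2.2.1 and BWA 0.7.17, with GATK 4.5.0.0 and Picard 3.1.1, and with featureCounts 2.0.1 and Subread, on the builds GRCm38 and mm10. What each tool did, its settings, the annotation and the strandedness were not given in the sources used here. The depth behind the TPM is unknown, so no counting interval is given, and the number of libraries limits the precision.

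TPM were rescaled over the genes in both tables and log2(TPM + 1) was fitted with limma 3.58.1 in R 4.3.3 (eBayes with trend), with treatment as a covariate. Interaction and treatment contrasts came from a model of the 6 groups. The fit was tested on simulated data. Coordinates and gene types came from GENCODE M21 (GRCm38), in which 25932 of the 26017 genes were found by identifier. Coordinates are given only for genes with the same identifier version. Promoter windows came from the RefSeq table of GRCm38.p6. Composition was compared by exact permutation within treatments (numpy 2.4.6), adjusted by Benjamini-Hochberg over 5 measures.

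The comparison, its members and the 42 gene lists were chosen with earlier results of these data known, so lists carry no test. Named genes are the 15 highest and 15 lowest changes with 10 TPM or more in the higher preparation and no overlap, up to 5 leading members of each list and its called members in the other direction. G3bp1, G3bp2, Caprin1, all globins, the sex-chromosome list and the 5 genes with the smallest interaction p complete the rule, and the text prints a selection of 284 such genes, some of which are not reported here. The sense-intronic share, the antibody contrast and the fit of protein-coding genes alone were added after the data were seen. Other pseudocounts, filters, scalings, variance models, a replicate block, single treatments and each library left out in turn were tried as alternatives.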

Additional observations from a re-analysis of the deposited data

Results flagged for a closer look

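In 114 groups of 6 libraries examined for a library far from the others, 15 had one. Chance flags about 1 in 20 groups, and the measures share libraries. The first fresh-frozen IgG library was far above the others of its preparation in genes at 1 TPM or more (25508), in olfactory and vomeronasal receptor genes at that level (422) and in their summed level (1217 TPM). It was also apart in 3 predicted genes, Gm10800 (20669 TPM), Gm10801 (2552 TPM) and Gm10722 (798 TPM), and in the Hox sum (11.1 TPM). The first fixed anti-G3BP1 library was apart in the same 3 predicted genes, at 2315, 50.2 and 65.7 TPM.

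The first fixed IgG library had the highest Hox sum of its preparation (2683 TPM). The second fixed untreated library was apart in embryonic globins and red cells (18028 TPM) and in adult globins (1578 TPM). The second fresh-frozen untreated library was apart in adult globins (1683 TPM). The second fixed IgG library was apart in placental genes at a sum of 1.14 TPM, where no gene passed the filter.

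The effect of treatment differed between preparations for 1040 genes by the limma interaction test.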

How the results depend on the processing

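Counts of calls depended on the scaling, since the median of all genes was 0.65 in the reported fit, -0.19 with each library centred at its median and -0.025 after quantile normalization. With centred libraries 7094 genes were higher and 8917 lower. After quantile normalization 8122 were lower. Tested against a log2 change of 1, 6344 were higher and 2224 lower. Leaving out each library in turn gave 10808 to 11014 higher and 4959 to 5309 lower genes, and 11418 to 11593 in either direction with a log2 change of 1 or more. The other alternatives kept these counts within 1.5 times.

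Treatment results were less stable. The interaction called 382 genes without a variance trend and 357 to 1904 with each library left out. In fresh-frozen libraries treatment called 1614 to 3804 genes and the antibody contrast 1938 to 4440 with each library left out. In fixed libraries treatment called 65 genes with a pseudocount of 0.1, 9 in centred libraries, 3 without a trend, 9 among protein-coding genes and 4 to 275 with each library left out. The antibody contrast there called 72 genes with a pseudocount of 0.1, 19 with a pseudocount of 5, 0 without a filter, 5 in centred libraries, 19 after quantile normalization, 0 without a trend, 36 among protein-coding genes and 0 to 731 with each library left out. The highest values of both were without the first untreated library.

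Replicate numbers did not pair the libraries: deviations of same-numbered libraries of the 2 preparations correlated at -0.013, 0.0032 and -0.039 for IgG, anti-G3BP1 and untreated libraries. With the replicate block 10989 genes were higher and 5136 lower, the interaction called 791 genes, and within the fixed libraries treatment called 4 and the antibody contrast 0.

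Of the log2 changes of the 122 genes named, 13 values under an alternative changed sign. In centred libraries these were Cenpf (-0.779), Caprin1 (-0.721), Slc7a5 (-0.0299) and Lin28b (-0.251). After quantile normalization they were Cenpf (-0.686), Lin28b (-0.235) and Ogn (-0.0961), and with IgG libraries only Cenpf (-0.849). With untreated libraries only they were Sall1 (0.00121), Cck (-0.108), Amn (-0.81), Rarb (0.381) and Ezr (0.534). Another 57 values lost the threshold, 15 gained it and 3326 kept their side. The cause was not tested. Composition differences with each library left out were 2186 to 2543 genes, -12.2 to -10.9% for the 100 highest genes, -5.11 to -4.56% for mitochondrial genes, 0.641 to 1.19% for protein-coding genes and 0.394 to 0.439% for sense-intronic models. The protein-coding difference was -0.13% over the deposited tables.

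Limits: 2 libraries per group, no stated origin from separate embryos, separate tables, unknown depth and no strand leave low genes, near-identical copies and intronic models uncertain.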
